A study of Mus musculus with 6 samples.

Results

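The 45 genes described here encode the machinery of mitosis: the cyclins and kinases that start it, the spindle, the kinetochores, the spindle checkpoint and the enzymes that end it. They were chosen as a list of gene symbols, and every probe annotated to one of these symbols was taken. Of the 45 genes, 43 had a probe, 86 probes in all, among 19057 named genes on the array. Of these 43, 28 genes had at least 1 probe that was detected well enough to be tested. Mki67 and Ccnb1 had no probe under these symbols.

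The transcripts were measured in mouse embryonic fibroblasts, cells grown out of dissociated embryos of a mixed 129SV and C57BL/6 background. There were 3 Lpar6-/- arrays, called D, E and F, and 3 Lpar6+/+ arrays, called A, B and C, on Illumina bead arrays whose sample titles share 1 chip number. Lpar6 encodes a receptor for the lipid signal lysophosphatidic acid, and the comparison asks how the transcripts of cells without it differ from those of cells that carry it. The labels give no treatment, passage or embryo, and do not say that replicates came from separate cultures. The p-values therefore rest on the spread among 3 arrays a genotype, and that spread may be technical alone. The series is titled a knock-down, while its genotype labels, followed here, give Lpar6-/-.

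Entry into mitosis is driven by CDK1 bound to A- and B-type cyclins, helped by the CDC25 phosphatases and by the Polo-like and Aurora kinases. Kinesin motors and microtubule-binding proteins build the spindle, and kinetochores attach the chromosomes to it. The spindle checkpoint holds back the anaphase-promoting complex until all chromosomes are attached. Transcripts of these genes are known to be scarce in resting cells and to peak in G2 and mitosis, so that their level in a culture is widely used as a sign of how many cells are dividing. In a bulk sample, fewer cells in division and less of the transcript per dividing cell cannot be told apart.

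The probe for Lpar6 had intensities of 76.7, 77.9 and 76.0 on the Lpar6-/- arrays, against 1373, 1223 and 1278 on the Lpar6+/+ arrays. It was detected on no Lpar6-/- array and was called lower there (limma, adjusted p = 1.51e-09). Between 19006 and 19249 of the 45281 probes were detected on the Lpar6-/- arrays and between 19646 and 20137 on the Lpar6+/+ arrays, at a detection p threshold of 0.05. Of the 10 fibroblast markers, all 10 were tested and 7 were higher in Lpar6-/- cells, with summed intensities of 66570 to 73073 on the Lpar6-/- arrays and 40702 to 49394 on the Lpar6+/+ arrays. Over all 11040 genes tested, 20.6% were called higher and 19.1% lower. Markers of other cell types differed on the same arrays. Higher were 9 of 9 tested adipocyte markers (sums of 11486 to 13275 in Lpar6-/- and 4425 to 4520 in Lpar6+/+), 8 of 8 skeletal and cardiac muscle markers (16410 to 18113 and 8806 to 10061) and 8 of 8 epithelial markers (2743 to 2997 and 1465 to 1600). Lower were 9 of 9 neuronal markers (1666 to 1778 in Lpar6-/- and 8226 to 9305 in Lpar6+/+), 8 of 9 cartilage markers (4556 to 4923 and 17122 to 19552) and 3 of 3 erythroid markers (3645 to 4075 and 8790 to 9991). Macrophage markers, with 1 of 6 higher and 1 lower, lay near the shares of all genes (2403 to 2704 in Lpar6-/- and 2868 to 3367 in Lpar6+/+). Endothelial markers had 2 of 5 higher and 1 lower (2140 to 2254 and 1827 to 2108). The macrophage, endothelial and erythroid lists held too few tested genes for a firm reading against these shares. The 1 tested neural progenitor marker was not called (644 to 755 in Lpar6-/- and 672 to 804 in Lpar6+/+). Among the defining markers, Adipoq, Cidea, Cidec, Plin1, Ckm and Esrp1 were detected on no Lpar6+/+ array. They were tested through the Lpar6-/- arrays alone, so their calls as higher are no separate evidence. They make up 4 of the 9 adipocyte, 1 of the 8 muscle and 1 of the 8 epithelial markers counted above. The part of these other cell types in the results below was not tested.

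Mitosis genes were higher in Lpar6-/- cells as a group and by moderate amounts. Of the 28 genes tested, 24 were called higher and none lower (limma, adjusted p below the threshold of 0.05), where 20.6% of the 11040 genes tested were called higher and 19.1% lower (39.7% either way). At an unadjusted p under 0.05, 25 were higher and 0 lower. The shares of all genes at that looser threshold were not counted, so these 2 counts have no background here. The median log2 change, Lpar6-/- minus Lpar6+/+, was 0.57 over the 28 genes and 0.027 over all genes tested. Called changes ran from 1.20-fold for Cdc20 to 3.48-fold for Plk1, and 22 of the 24 were under 2-fold. Plk1 and Plk4 were at least 2-fold higher, as were 2.39% of all genes tested. The processing enlarged the changes of dim probes. Without background correction, and with an offset of 50 added before log2, 7 of the 28 genes had changes more than 1.5 times smaller. These were Cdc25b, Cdc25c, Plk4, Espl1, Kif11, Tpx2 and Foxm1, and that offset itself narrows the changes of dim probes. Values given below without background correction carry the same offset. On the authors' values, which lie near plain quantile-normalized log2, the 7 changes were 0.12, 0.49, 0.55, 0.41, 0.38, 0.30 and 0.51, in the same order. In 25 of the 28 genes all 3 Lpar6-/- values lay above all 3 Lpar6+/+ values, an upward separation found in 27.6% of all genes tested. A downward separation was found in none of the 28 and in 25.3% of all genes. All 28 were detected on all 6 arrays, so none was kept through the arrays of a single genotype. They lie on 14 chromosomes.

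Each Lpar6-/- array showed the shift to a like degree. Set against the Lpar6+/+ mean of each gene, the median log2 deviation of the 28 genes was 0.64 on array D, 0.58 on array E and 0.59 on array F, against -0.014 on array A, 0.0040 on array B and -0.040 on array C. The same median over all genes tested lay between 0.024 and 0.029 on the Lpar6-/- arrays and between -0.0062 and 0.0071 on the Lpar6+/+ arrays. Within a genotype the genes did not follow 1 array: the highest Lpar6-/- value fell on array D in 11 genes, on array E in 9 and on array F in 8. Before normalization the mean intensity was higher in Lpar6-/- cells for 26 of the 28 genes, though for Spc25 the ratio was only 1.002. The same count was not made over all genes tested. Median probe intensity was 88.3 to 92.6 on the Lpar6-/- arrays and 90.7 to 98.3 on the Lpar6+/+ arrays.

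**Figure D1:**
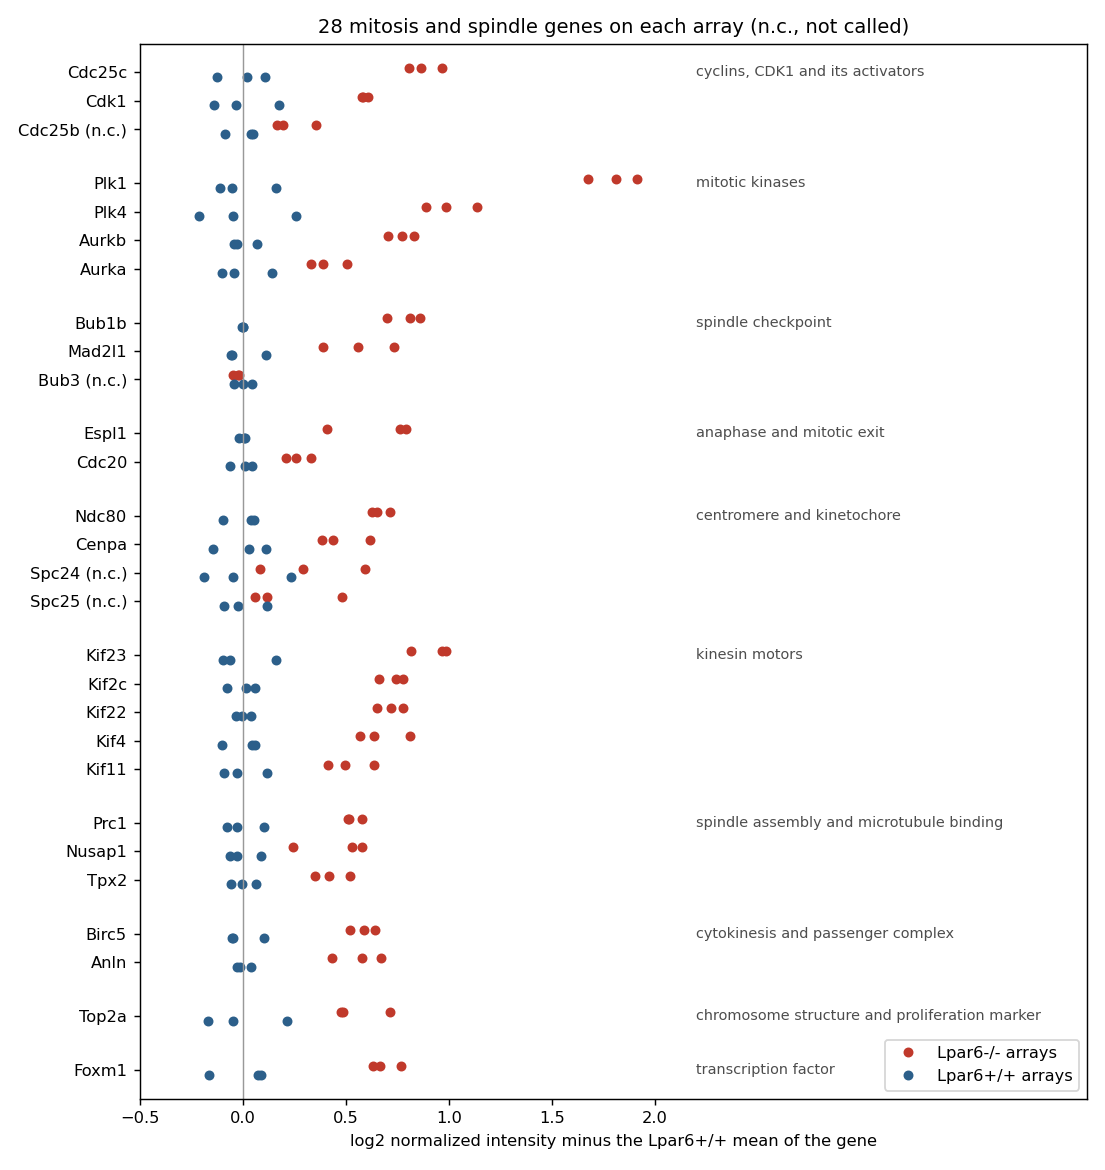
Log2 normalized intensity of each of the 28 tested genes on each array, as the difference from the gene's Lpar6+/+ mean; red points are the 3 Lpar6-/- arrays, blue points the 3 Lpar6+/+ arrays, and genes are grouped by role. The red points lie to the right of the blue points in 25 genes; Bub3, Spc24 and Spc25 overlap, and these and Cdc25b were not called (n.c.).

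Many promoters of mitosis genes are known to carry a cell cycle genes homology region (CHR), which is bound by complexes built on the MuvB proteins and by B-MYB, beside boxes for the factor NF-Y. The 300-base windows from 250 bases before the start site to 50 bases from it on, as given by RefSeq for GRCm38.p6, were searched on both strands for the CHR letters TTTGAA or TTCGAA and for the NF-Y letters CCAAT. Windows were at hand for 38 of the 45 genes, 41 windows in all. A CHR match stood in 32 of the 41 (78%), against 19.2% of all 32851 windows and 13.7% of the windows of genes tested. A CCAAT match also stood in 32 of the 41 (78%), against 37.4% of all windows, and both stood in 29 (70.7%), against 7.52%. A CHR match within 50 bases of the start site was found in 29 of the 41 windows (70.7%), against 5.31% of all windows. Matches of the CHR letters and CCAAT did not overlap each other in these windows.

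The windows below are of Cdk1, though Cdc25c changed more, and of the genes with the largest change among kinases, checkpoint and anaphase genes. They are shown as examples. They run 5′ to 3′ on the gene's strand, with CHR and CCAAT matches in capitals on either strand, so that ATTGG is CCAAT read from the other strand.
Cdk1 (chr10:69352863-69353162, minus strand): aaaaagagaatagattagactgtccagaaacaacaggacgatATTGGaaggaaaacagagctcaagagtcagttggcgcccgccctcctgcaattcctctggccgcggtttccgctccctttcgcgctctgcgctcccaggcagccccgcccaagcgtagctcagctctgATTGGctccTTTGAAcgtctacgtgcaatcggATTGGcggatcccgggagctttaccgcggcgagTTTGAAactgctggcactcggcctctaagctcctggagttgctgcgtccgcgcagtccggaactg
Plk1 (chr7:122159185-122159484, plus strand): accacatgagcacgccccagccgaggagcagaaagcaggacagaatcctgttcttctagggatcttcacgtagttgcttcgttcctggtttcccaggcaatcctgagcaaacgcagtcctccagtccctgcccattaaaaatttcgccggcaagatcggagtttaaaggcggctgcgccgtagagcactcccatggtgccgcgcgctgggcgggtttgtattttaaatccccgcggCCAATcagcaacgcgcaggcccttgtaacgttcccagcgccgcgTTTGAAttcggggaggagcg
Bub1b (chr2:118597961-118598260, plus strand): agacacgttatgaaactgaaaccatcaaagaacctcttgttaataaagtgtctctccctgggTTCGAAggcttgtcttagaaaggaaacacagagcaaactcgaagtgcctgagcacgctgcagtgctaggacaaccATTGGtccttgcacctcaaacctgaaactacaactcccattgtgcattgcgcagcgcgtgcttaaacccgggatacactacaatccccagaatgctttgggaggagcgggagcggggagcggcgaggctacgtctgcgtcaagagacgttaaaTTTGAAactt
Espl1 (chr15:102296043-102296342, plus strand): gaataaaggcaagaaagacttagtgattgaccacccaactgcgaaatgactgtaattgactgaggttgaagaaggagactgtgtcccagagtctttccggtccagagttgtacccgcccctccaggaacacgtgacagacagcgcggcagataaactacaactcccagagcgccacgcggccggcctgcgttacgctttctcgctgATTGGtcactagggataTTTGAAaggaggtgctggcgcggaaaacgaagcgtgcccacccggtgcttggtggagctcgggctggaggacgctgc

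Cdk1 held 2 CHR and 3 CCAAT matches, with the nearer CHR 15 bases before the start site. In Plk1 the CHR began at base 31 after the start, in Bub1b 1 of 2 CHR matches began at base 41, and in Espl1 27 bases before it. A match is a description of letters and not of binding. Among tested genes with a window, the 19 mitosis genes with a CHR match had a median log2 change of 0.56 and the 4 without had 0.57. Over all genes tested, the 1451 with a CHR match had a median of 0.038, with 21.1% called higher, and the 7429 without had 0.021, with 19.8% called higher.

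Among the genes that switch CDK1 on, 2 of the 3 tested rose. Cdk1, the kinase that drives entry into mitosis (chromosome 10), had log2 normalized intensities of 10.22, 10.24 and 10.22 on the Lpar6-/- arrays, against 9.50, 9.81 and 9.60 on the Lpar6+/+ arrays. The Lpar6-/- values were close together and all above the highest Lpar6+/+ value, and the change was 0.59 ± 0.10 (SE; limma, adjusted p = 0.00172). Cdc25c, a phosphatase that removes the inhibitory phosphates from CDK1, read 6.79, 6.95 and 6.85 in Lpar6-/- cells and 5.86, 6.01 and 6.09 in Lpar6+/+ cells, a change of 0.88 ± 0.098 (limma, adjusted p = 0.000124) that was 0.37 without background correction. Its relative Cdc25b read 6.25, 6.09 and 6.06 in Lpar6-/- cells and 5.94, 5.93 and 5.81 in Lpar6+/+ cells. These groups did not overlap, but the change of 0.24 ± 0.095, or 0.084 without background correction, did not pass (limma, adjusted p = 0.0748), and it passed with detection asked at p below 0.01 on all 6 arrays (adjusted p = 0.047) and when a gene's tested probes were averaged (adjusted p = 0.0496). The cyclin genes Ccna2 and Ccnb2 and the CDK-binding subunits Cks1b and Cks2 had no tested probe.

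All 4 mitotic kinases rose, and they held the widest range of changes of any role. Plk1, the Polo-like kinase of mitotic entry, spindle poles and cytokinesis (chromosome 7), had unnormalized intensities of 952, 1209 and 1092 on the Lpar6-/- arrays, against 461, 377 and 352 on the Lpar6+/+ arrays. On the normalized log2 scale it read 9.92, 10.16 and 10.06 in Lpar6-/- cells and 8.41, 8.19 and 8.13 in Lpar6+/+ cells. Its change of 1.80 ± 0.11 (limma, adjusted p = 2.24e-06) was the largest of the 28, above that of 99.5% of all genes tested. Plk4, which starts centriole duplication (chromosome 3), read 7.03, 6.78 and 6.88 in Lpar6-/- cells and 5.68, 5.84 and 6.15 in Lpar6+/+ cells, a change of 1.003 ± 0.13 (limma, adjusted p = 0.000328). Plk4 was dim, and with no background correction its change was 0.41, under 2-fold. It remained called in every alternative run.

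Both Aurora kinases also rose. Aurkb, the kinase of the chromosomal passenger complex that corrects faulty attachments (chromosome 11), read 8.42, 8.37 and 8.29 in Lpar6-/- cells and 7.66, 7.56 and 7.55 in Lpar6+/+ cells. The groups lay well apart, with a change of 0.77 ± 0.089 (limma, adjusted p = 0.000149). Aurka, which acts at spindle poles (chromosome 2), read 9.49, 9.55 and 9.66 in Lpar6-/- cells and 9.06, 9.12 and 9.30 in Lpar6+/+ cells, a change of 0.41 ± 0.10 (limma, adjusted p = 0.0106).

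**Figure D2:**
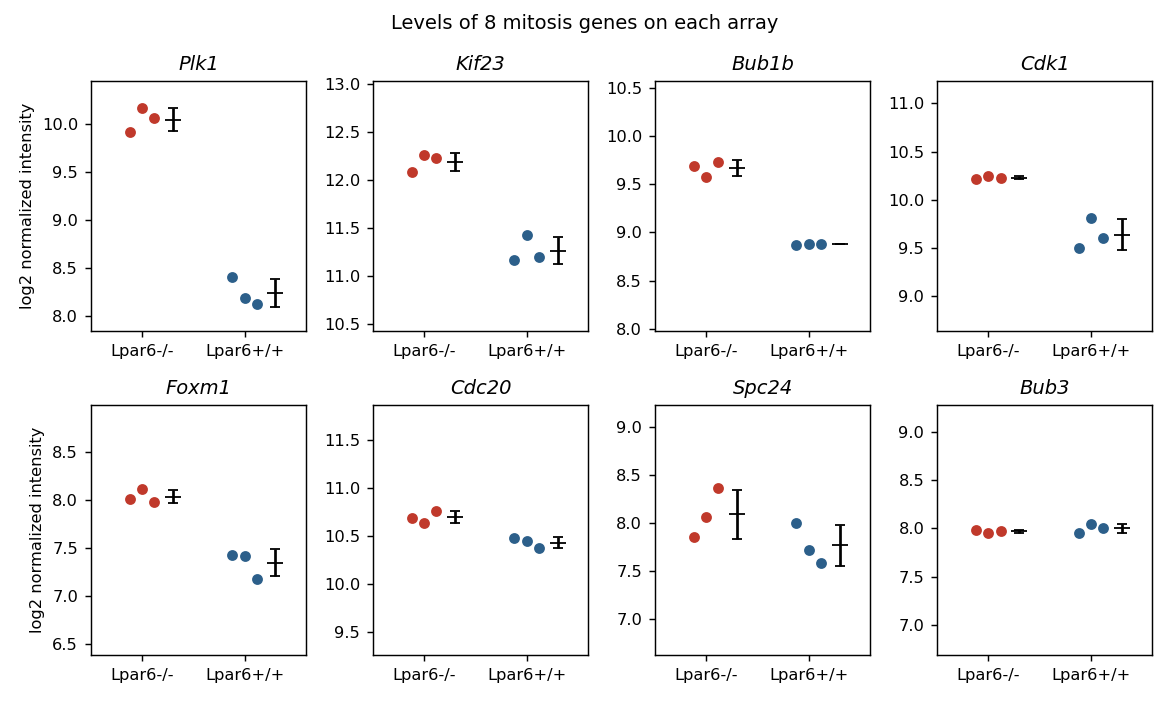
Log2 normalized intensity of 8 genes on each array, Lpar6-/- left and Lpar6+/+ right, with the mean and SD of 3 arrays in black; every panel spans the same log2 width. Plk1 differs most (1.80), Cdc20 by 0.27, Spc24 overlaps between genotypes, and Bub3 lies near 8 on all arrays.

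Checkpoint genes split. Bub1b, which encodes the checkpoint protein BubR1 (chromosome 2), read 9.69, 9.58 and 9.74 in Lpar6-/- cells and 8.87, 8.88 and 8.88 in Lpar6+/+ cells, a change of 0.79 ± 0.088 (limma, adjusted p = 0.000118). Mad2l1, whose product MAD2 binds and holds CDC20 (chromosome 6), read 9.59, 9.76 and 9.93 in Lpar6-/- cells and 9.15, 9.31 and 9.14 in Lpar6+/+ cells. The change was 0.56 ± 0.11 (limma, adjusted p = 0.00358). Bub3, the partner of BUB1 and BubR1 that is also known to act with RNA processing factors outside mitosis (chromosome 7), read 7.98, 7.96 and 7.98 in Lpar6-/- cells and 7.96, 8.04 and 8.001 in Lpar6+/+ cells. The Lpar6-/- values lay within the Lpar6+/+ range or at its lower edge, and its change of -0.03 ± 0.084 was the only negative one of the 28 (limma, adjusted p = 0.817, and -0.15 to -0.0067 over 18 alternatives). Bub1 and Ttk, the kinases of the checkpoint, were not tested.

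Of the genes that end mitosis, both tested members were called. Espl1 encodes separase, the protease that cuts cohesin at anaphase (chromosome 15), and read 7.27, 6.89 and 7.24 in Lpar6-/- cells and 6.49, 6.48 and 6.46 in Lpar6+/+ cells. Its change was 0.65 ± 0.11 (limma, adjusted p = 0.00185), or 0.32 without background correction, with array E the lowest of the Lpar6-/- arrays and still above the Lpar6+/+ values. Cdc20, the activator of the anaphase-promoting complex (chromosome 4), read 10.69, 10.64 and 10.76 in Lpar6-/- cells and 10.48, 10.44 and 10.37 in Lpar6+/+ cells. Its change of 0.27 ± 0.088 was the smallest of the called ones on this scale (limma, adjusted p = 0.0387). This call rested on all 6 arrays: it was lost on leaving out any of D, E, F, A, B or C, with adjusted p of 0.0543 to 0.118, and also under median scaling (0.085) and cyclic loess (0.0579). Ube2c and Pttg1, the ubiquitin-conjugating enzyme of the complex and securin, had no tested probe.

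Kinetochore genes were called in 2 of 4. Ndc80, part of the complex that grips microtubules (chromosome 17), read 8.33, 8.25 and 8.27 in Lpar6-/- cells and 7.53, 7.68 and 7.66 in Lpar6+/+ cells, a change of 0.66 ± 0.089 (limma, adjusted p = 0.000398). Cenpa, the histone H3 variant that marks the centromere (chromosome 5), read 12.20, 12.43 and 12.25 in Lpar6-/- cells and 11.93, 11.84 and 11.67 in Lpar6+/+ cells. Its change was 0.48 ± 0.11 (limma, adjusted p = 0.00632).

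The remaining subunits of the Ndc80 complex with a tested probe, Spc24 and Spc25, were not called by their brightest probes, and their groups overlapped. Spc24 (chromosome 9) read 7.85, 8.06 and 8.36 in Lpar6-/- cells and 7.999, 7.72 and 7.58 in Lpar6+/+ cells, a change of 0.32 ± 0.15 (limma, adjusted p = 0.123). A dimmer Spc24 probe read 6.83, 6.47 and 6.91 in Lpar6-/- cells and 6.16, 5.79 and 6.13 in Lpar6+/+ cells, with no overlap and a change of 0.71 ± 0.14 (limma, adjusted p = 0.00423). The brightest Spc24 probe passed under 4 alternatives that kept it (adjusted p = 0.0355 to 0.0432), among them the authors' own values and an offset of 50. Spc25 (chromosome 2) read 7.98, 8.04 and 8.40 in Lpar6-/- cells and 7.90, 8.04 and 7.83 in Lpar6+/+ cells, a change of 0.22 ± 0.13 (limma, adjusted p = 0.202), and its other probe gave 0.29 ± 0.10 (limma, adjusted p = 0.0488).

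All 5 tested kinesins rose, by 0.52 to 0.92. Kif23, the motor of the centralspindlin complex needed to divide the cell (chromosome 9), read 12.08, 12.26 and 12.23 in Lpar6-/- cells and 11.17, 11.43 and 11.20 in Lpar6+/+ cells. Its change was 0.92 ± 0.10 (limma, adjusted p = 0.00013), and its other 2 tested probes gave 0.79 and 0.67. Kif2c, which takes microtubules apart at centromeres (0.73 ± 0.089), and the chromosome arm motors Kif22 (0.72 ± 0.086) and Kif4 (0.67 ± 0.10) followed. Kif11, the motor that pushes the spindle poles apart (chromosome 19), read 7.82, 7.96 and 7.74 in Lpar6-/- cells and 7.44, 7.29 and 7.23 in Lpar6+/+ cells, the smallest change of the kinesins at 0.52 ± 0.10 (limma, adjusted p = 0.00341), or 0.32 without background correction. None of the 5 kinesins overlapped between genotypes, an upward separation found in 27.6% of all genes tested.

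The 3 tested genes of spindle assembly were all called. Prc1, which bundles the microtubules of the central spindle (chromosome 7), read 11.77, 11.76 and 11.83 in Lpar6-/- cells and 11.23, 11.18 and 11.36 in Lpar6+/+ cells, a change of 0.53 ± 0.090 (limma, adjusted p = 0.0015). Nusap1, a microtubule-stabilizing protein of the spindle, changed by 0.45 ± 0.11, with array E (9.40) well below arrays D (9.73) and F (9.68). Tpx2, the activator of Aurora A at the spindle, read 7.58, 7.48 and 7.41 in Lpar6-/- cells and 7.12, 7.05 and 6.996 in Lpar6+/+ cells. Its change of 0.43 ± 0.091 (limma, adjusted p = 0.00505) was not called with median scaling (0.28, adjusted p = 0.0669) and was 0.24 without background correction.

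Cytokinesis and chromosome genes gave changes close to the median of the list. Birc5, which encodes the passenger protein survivin (chromosome 11), read 10.48, 10.43 and 10.36 in Lpar6-/- cells and 9.79, 9.94 and 9.79 in Lpar6+/+ cells, a change of 0.58 ± 0.091 (limma, adjusted p = 0.000966). Anln encodes anillin, a scaffold of the contractile ring, and read 10.47, 10.38 and 10.23 in Lpar6-/- cells and 9.77, 9.79 and 9.84 in Lpar6+/+ cells, a change of 0.56 ± 0.095. Top2a, the topoisomerase that untangles sister chromatids (chromosome 11), read 10.29, 10.06 and 10.05 in Lpar6-/- cells and 9.40, 9.53 and 9.79 in Lpar6+/+ cells. Array C was the highest Lpar6+/+ array for Top2a and stayed below the Lpar6-/- arrays, and the change was 0.56 ± 0.12 (limma, adjusted p = 0.00607). Foxm1, the transcription factor that activates many late cell cycle genes (chromosome 6), read 8.01, 8.11 and 7.98 in Lpar6-/- cells and 7.43, 7.42 and 7.18 in Lpar6+/+ cells, a change of 0.69 ± 0.10 (limma, adjusted p = 0.000666), or 0.44 without background correction.

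Probes of the same gene mostly moved together. Of the 47 tested probes of the 28 genes, 39 were called higher, 8 were not called, and 46 had a positive change, where 19.3% of all 19802 tested probes were called higher. Among the 14 genes with more than 1 tested probe, all probes were called in 9, Cenpa and Nusap1 among them. The dimmer tested probes of Cenpa, Nusap1 and Anln were detected on all 3 Lpar6-/- arrays and on 1, 2 and 2 Lpar6+/+ arrays. These probes passed the detection filter only with the Lpar6-/- arrays, so they are no separate evidence of agreement. The 3 Birc5 probes lay between 0.53 and 0.59, and the 4 Cdc20 probes between 0.25 and 0.31, of which 2 were called. In Top2a a dimmer probe gave 0.10 ± 0.11 (limma, adjusted p = 0.523) against 0.56 for the brightest. In Kif4 the 3 probes gave 0.67, 0.65 and 0.28, all called. The dimmer Anln probe gave 0.34 ± 0.14 and was not called (limma, adjusted p = 0.0881).

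**Figure D3:**
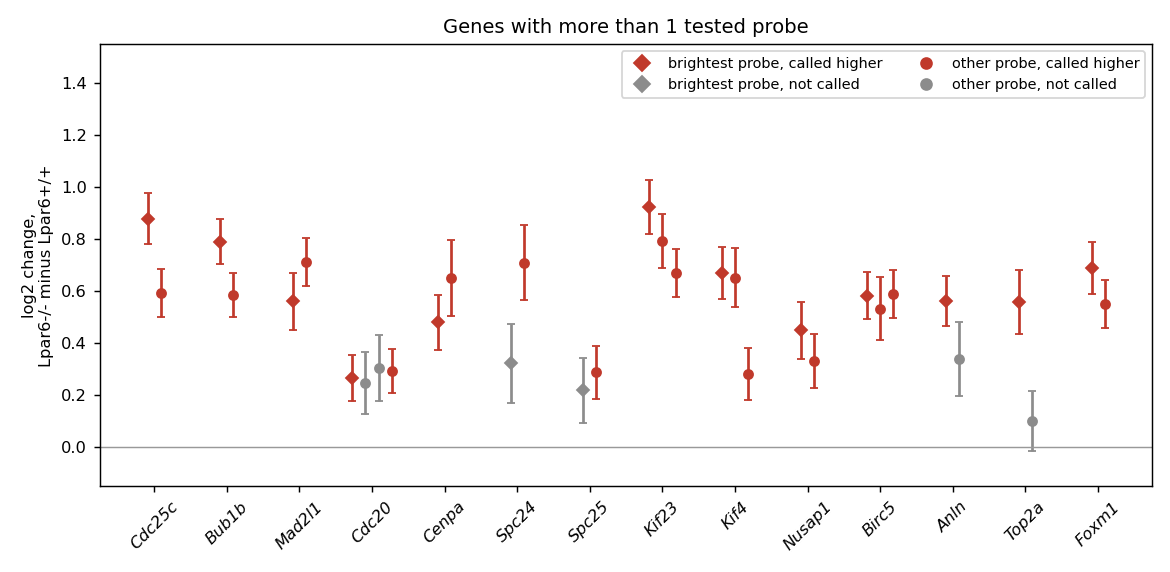
Log2 change, Lpar6-/- minus Lpar6+/+, with its SE, of every tested probe of the 14 genes with more than 1; diamonds are the brightest probe of a gene, circles its other probes, red is called higher and grey not called. All points lie above 0, from 0.10 for the dim Top2a probe to 0.92 for the brightest Kif23 probe.

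The probes of 15 mitosis genes were too dim to test. These were Ccna2, Ccnb2, Cks1b, Cks2, Bub1, Ttk, Ube2c, Pttg1, Cenpe, Cenpf, Nuf2, Kif20a, Hmmr, Ect2 and Racgap1, with 22 probes in all. Their intensities ran from 70.4 to 106 on the Lpar6-/- arrays and from 68.9 to 108 on the Lpar6+/+ arrays. In 12 of the 15 genes no probe was detected on any array. Of the 86 probes of mitosis genes, 39 were not tested, and 17 of these belonged to genes that a brighter probe did measure, such as Cdk1 and Plk4. A dim probe gives no level for its transcript here. Nuf2 pairs with NDC80 in the kinetochore, and Cenpf is a large kinetochore protein. Each had a probe detected on 2 Lpar6-/- arrays and on no Lpar6+/+ array. The Pttg1 probe was detected on 1 Lpar6+/+ array and on no Lpar6-/- array. With probes this dim, these detections give no direction of change.

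Other genes of division outside the 45 were read from the same comparison, as 8 lists with 132 tested genes, of which 65 were called higher and 4 lower, where 20.6% and 19.1% of all genes tested were. Without background correction and with offset 50, the change was over 1.5 times smaller for 17 of the 24 genes named from these lists. They were named by their size of change, so their order depends on the processing. Of 26 spindle and cytokinesis genes, 15 rose and 3 fell, and the median change was 0.54. Aspm, which focuses spindle poles, read 6.42, 6.48 and 6.89 in Lpar6-/- cells against 5.67, 5.24 and 5.58 in Lpar6+/+ cells, a change of 1.10 ± 0.15 from a dim probe that was 0.40 without background correction. Cdca3, an adaptor for the degradation of the CDK1 inhibitor WEE1 (0.78 ± 0.096), and Haus1, of the augmin complex that branches spindle microtubules (0.78 ± 0.11), were also higher. Without background correction these were 0.71 and 0.43. Of 23 other kinetochore and centromere genes, 13 rose and 1 fell, and the median was 0.38. Cenpp (0.91 ± 0.094), Dsn1 (0.87 ± 0.094), Cenpm (0.80 ± 0.11) and Cenph (0.79 ± 0.10), which encode proteins of the inner and outer kinetochore, were among them. Their probes were dim, and without background correction the changes were 0.47, 0.37, 0.42 and 0.31, in the same order of genes.

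The 4 genes that fell went against the group. Gtse1, a microtubule-binding protein of G2 cells that also restrains p53, read 9.31, 9.40 and 9.18 in Lpar6-/- cells and 10.10, 10.13 and 10.12 in Lpar6+/+ cells. Its change of -0.82 ± 0.092 (limma, adjusted p = 0.00013) was called in every alternative run, with values of -0.87 to -0.72. Ckap2, a microtubule-stabilizing protein, read 8.19, 8.26 and 8.05 in Lpar6-/- cells and 8.71, 8.97 and 8.996 in Lpar6+/+ cells (-0.73 ± 0.11). Dlgap5, a spindle protein also known as HURP, read 6.56, 6.06 and 6.20 in Lpar6-/- cells and 6.82, 6.67 and 6.79 in Lpar6+/+ cells (-0.49 ± 0.13). Cenpt, which links the centromere to the NDC80 complex, read 10.01, 9.91 and 9.99 in Lpar6-/- cells and 10.81, 10.68 and 10.76 in Lpar6+/+ cells (-0.78 ± 0.088). In none of the 4, picked here as called lower, did the groups overlap, a downward separation found in 25.3% of all genes tested. Ckap2, Dlgap5 and Cenpt are named after their values were seen, and the number of lower genes in these lists was 3 to 8 over the alternatives.

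Chromosome structure genes were called higher in 8 of 14, among them the cohesion regulators Cdca5 (0.64 ± 0.095) and Sgo1 (0.52 ± 0.092) and the condensin genes Ncapg2 (0.63 ± 0.13) and Smc4 (0.52 ± 0.15). Without Lpar6-/- array F the count was 5, where 17.8% of all genes were called higher. Ncapg2 and Smc4 were not called in that run (limma, adjusted p = 0.139 and 0.0739). Without background correction the 4 changes were 0.32, 0.31, 0.19 and 0.17, in the order named. Smc4, whose groups overlapped, was also lost without arrays D, A or C (0.0761 to 0.0905). It was lost too under median scaling (limma, adjusted p = 0.0809) and without the detection filter (0.059). The subunits and regulators of the anaphase-promoting complex, which is kept through the cell cycle and switched by its activators, were called in 1 of 12, where 20.6% of all genes were called higher, with a median of 0.048. That gene was Anapc15 (0.47 ± 0.14, or 0.26 without background correction). Its call was lost under median scaling, without the detection filter and without arrays F, A or C (limma, adjusted p = 0.0541 to 0.0947). Centrosome and centriole genes were called in 3 of 10, near the 20.6% of all genes called higher. With median scaling 1 of 10 was called, against 14.8% of all genes. The 3 were Cdk5rap2 (0.43 ± 0.10), the gamma-tubulin gene Tubg1 (0.40 ± 0.092) and the pericentrin gene Pcnt (0.31 ± 0.10, or 0.14 without background correction). Under that scaling Cdk5rap2 and Pcnt were not called (limma, adjusted p = 0.0617 and 0.371), and Pcnt was also lost without any of 5 arrays, E, F, A, B or C (0.0535 to 0.138). Further losses of Pcnt came with cyclic loess (limma, adjusted p = 0.0841), without the detection filter (0.0644) and without background correction (0.0507).

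Of 7 tested brakes on CDK1, 2 were called higher, too few genes to set against the 20.6% of all genes. Pkmyt1, the kinase that adds an inhibitory phosphate to CDK1, was higher (6.48, 6.40 and 6.41 in Lpar6-/- against 5.80, 5.77 and 5.87 in Lpar6+/+, 0.61 ± 0.086, or 0.23 without background correction). The checkpoint kinase gene Chek1 was the other (0.56 ± 0.11, or 0.14 without background correction), though it was detected on only 1 Lpar6+/+ array and the size of its change is uncertain. Among the factors that act on CHR promoters, 2 of 11 were called, near the 20.6% of all genes called higher: Mybl2, which encodes B-MYB (7.62, 7.63 and 7.53 in Lpar6-/- against 7.14, 7.19 and 7.16 in Lpar6+/+, 0.43 ± 0.085), and Rbl1, which encodes the pocket protein p107 (0.34 ± 0.11). Without background correction they were 0.25 and 0.16. Rbl1 was not called with median scaling (0.16, limma, adjusted p = 0.352), with cyclic loess (0.082), without the detection filter (0.0633) or without arrays E, F, A, B or C (0.0668 to 0.111). S phase genes were called higher in 21 of 29, with a median of 0.42, among them Tk1 (0.81 ± 0.098), Chaf1b (0.70 ± 0.083), Pole (0.67 ± 0.088, or 0.33 without background correction) and Cdc45 (0.64 ± 0.11), which serve nucleotide supply, chromatin assembly and replication. Orc1, 1 of these 29, was detected on no Lpar6+/+ array and so was tested through the Lpar6-/- arrays alone. The difference between these lists and the 28 mitosis genes was not tested.

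**Figure D4:**
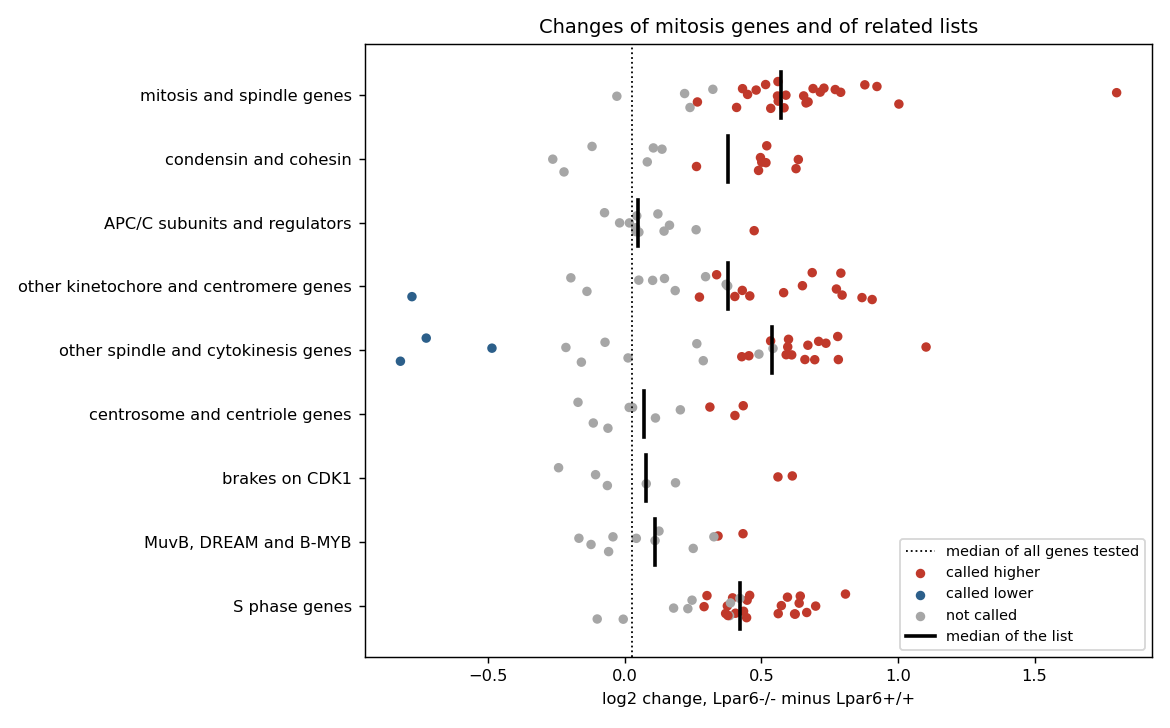
Log2 change, Lpar6-/- minus Lpar6+/+, of each tested gene of the mitosis list and of 8 related lists; red points are called higher, blue lower and grey not called, black bars are list medians and the dotted line is the median of all genes tested (0.027). Medians run from 0.57 for the mitosis genes down to 0.048 for the anaphase-promoting complex, and the 4 blue points are Gtse1, Ckap2, Dlgap5 and Cenpt.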

How the data were processed

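RNA of 6 fibroblast samples was extracted with Trizol, cleaned on columns with DNase treatment, and amplified to biotin-labelled cRNA, per the labels' protocols. The authors deposited a non-normalized intensity and a detection p-value per probe and array. A second table of theirs holds log2 values. The submitters' processing notes name limma, and the group means of this table lay within 0.00385 of plain quantile-normalized log2 intensities, with every column median at 6.54. Their other steps are not given here. Intensity columns are named by genotype and letter, without the replicate number, and were assigned to a genotype only. The sample titles share 1 chip number, so a slide effect could not be tested.

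Background was corrected by normexp from the detection p-values, followed by quantile normalization and log2, offset 16, in the neqc function (limma 3.58.1, R 4.3.3), which gave dim probes larger changes than uncorrected values did. Probes with detection p below 0.05 on at least 3 of 6 arrays were kept (19802 of 45281, 43.7%). Names came from GEO's platform annotation: 34885 probes had 1 symbol, 18 several, and 10378 are unnamed here. Symbols were checked through the Entrez ID in RefSeq for GRCm38.p6 (34807 matched, 0 differed). Chromosomes are from that table. Each gene was read from its brightest kept probe by the mean of all 6 arrays.

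Kept probes were tested for Lpar6-/- minus Lpar6+/+ with lmFit and eBayes of limma (4 residual and 5.27 prior degrees of freedom) and Benjamini-Hochberg adjustment over all of them. An exact test of 1 gene, 3 arrays against 3, cannot give a p below 0.1. All 45 genes were to be named, with up to 4 called genes of the largest change from each related list. Genes and lists were chosen with earlier results of these data known.

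Alternatives covered background correction, offset, scaling, the authors' values without and with the replicate number as a block, detection filters, probe averaging, variance model, array weights, threshold and leaving out each array. The run without background correction added an offset of 50 to the intensities before log2 and quantile normalization.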

Additional observations from a re-analysis of the deposited data

How the results depend on the processing

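Under 18 alternatives the 28 tested genes kept the sign of their change, and 20 of the 24 called genes stayed called in each. The other 4 were Cdc20, Tpx2, and, at a threshold of 0.01 alone, Aurka and Nusap1. The number called higher was 21 to 27 among these 28, where 10.6% to 25.6% of all genes were called higher. It was 27 for the mean of a gene's probes (22.8% of all genes), 22 under median scaling (14.8%) and 21 at a threshold of 0.01 (13%). The median change of 0.57 became 0.46 without background correction, 0.54 with a neqc offset of 50, 0.52 under the authors' values and 0.45 over 43 genes without the detection filter. Leaving out 1 array gave medians of 0.55 to 0.63, the highest without Lpar6+/+ array B. Over all genes, 2273 were higher and 2106 lower, against 1635 and 2511 under median scaling (39.4% of calls higher, against 51.9%), and 1430 were higher at a threshold of 0.01. In the related lists the 4 lower genes became 8 without background correction, 7 with the offset of 50, 8 under the authors' values and 8 with trend and robust. In these runs 21.1% to 21.5% of all genes were called lower, against 19.1%. With the replicate number as a block on the authors' values, 25 mitosis genes were called higher, as without the block, with a median of 0.52. Of all genes, 23.1% were called higher with the block and 23.3% without it. In the related lists 8 genes were lower with the block. Deviations of same-numbered samples correlated at -0.0536 to 0.0204, and those of differently numbered samples at -0.109 to 0.15. With 3 samples a genotype, these values cannot show whether same-numbered samples were paired. No order of levels between genes can be read from these probes, and the number of arrays and the dimness of probes limit what could be detected.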
